A study of Mus musculus with 16 samples.

Results

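The co-chaperones, HSP90 and chaperonins measured here are 44 genes chosen by mouse symbol: 14 J-domain genes, 6 BAG genes, 2 cytosolic HSP90 genes, 10 partners of HSP90 and HSP70, 2 heat shock factors, the mitochondrial HSP60 and HSP10 genes, and 8 subunits of the cytosolic chaperonin CCT. All 44 were found among the 48432 genes listed, and all 44 were among the 13987 genes with enough fragments to be tested. They were measured by RNA-seq in EPS and control myotubes of C2C12, 1 established mouse line whose myoblasts fuse into contracting myotubes when serum is lowered. EPS cells were differentiated for 5 days and then given electrical pulse stimulation, with 6 ms pulses at 1 Hz, a field of 2.75 V/mm, a duty cycle of 0.6% and a polarity switch at 0.5 Hz. Control cells, also at 5 days of differentiation, received no stimulation. The sources used here do not give how long the stimulation lasted. There were 4 libraries per group, each sequenced on 2 lanes. Nothing in the labels ties them to separate cultures, and a p-value here reflects just how far these libraries vary, which can be technical variation.

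Chaperones bind unfolded or partly folded proteins and help them reach or keep their native shape. HSP70 does little alone: J-domain proteins bring it clients and start its ATP cycle, BAG proteins release its nucleotide, and STIP1 passes clients on to HSP90, whose own cycle is set by AHSA1, p23 and other partners. Closed-chamber chaperonins work differently, HSP60 with its HSP10 lid in mitochondria and CCT on actin and tubulin in the cytosol. Heat shock factors, of which HSF1 is the main one in mammals, bind inverted repeats of GAA before many of these genes when unfolded protein builds up. In skeletal muscle, where contraction strains filament proteins, BAG3 and DNAJB6 are found at the Z-disc.

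Libraries differed in ways that touch every result below. Of the 8 libraries, 7 held 12.6 to 20.7 M fragments (1 M is 1000000), while control replicate 2 held 0.354 M, so that 3 fragments there equalled 8.68 CPM (fragments scaled for depth) against 0.146 to 0.239 CPM elsewhere. In control replicate 2 the 44 genes had 2 to 1860 fragments each, and 18 of them had under 30. The first principal component of all tested genes, holding 68.4% of the variance, separated control replicate 2 from the rest, and the second, holding 20.2%, separated EPS replicates 1 and 2 from EPS replicates 3 and 4. Deviations from the mean of all libraries correlated with transcript length across 13947 genes at 0.16 and 0.21 in EPS replicates 1 and 2, against −0.29 and −0.25 in EPS replicates 3 and 4. Myotube markers were abundant in all libraries, with summed levels of 16700 to 24100 CPM in EPS and 28300 to 35800 CPM in control cells, and 1 of the 11 tested was called lower without a replicate block and 9 with it. Fewer cells of a type and less RNA per cell cannot be told apart in such bulk samples. Cd68 carried most of the immune marker level, which summed to 2.07 to 27.3 CPM in EPS and 1.46 to 8.52 CPM in control libraries, with Adgre1 at 0. Endothelial markers summed to 0.323 to 13.2 CPM in EPS and 0 to 0.472 CPM in control libraries, with Tie1 at 0. The part of these differences in the chaperone results was not tested.

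Stimulated myotubes had more RNA from a limited number of these genes. With edgeR's quasi-likelihood test and Benjamini-Hochberg adjustment over all 13987 genes, 7 of the 44 were higher in EPS (15.9%), against a background of 2.30% of all genes called higher. These were the J-domain genes Dnajb1, Dnaja4, Dnajb4 and Dnajb2, the BAG gene Bag3, the inducible HSP90 gene Hsp90aa1 and the HSP90 activator Ahsa1. Dnajb5 was the single gene called lower (background 0.758%), and 36 genes did not pass. At an unadjusted p under 0.05 there were 19 higher and 1 lower among the 44, against 12.2% higher and 6.33% lower among all genes. Deviations of same-numbered EPS and control libraries correlated at 0.214 to 0.3, but other pairings reached 0.231 and 0.253. The labels do not say what the replicate numbers mean, so a block on them is an alternative to the main test. With that block 17 of the 44 were higher (38.6%, against 7.31% of all genes). Dnajb5 remained the only lower one (4.78% of all genes). The block lost no call and added Dnaja1, Dnaja2, Hsp90ab1, Stip1, Chordc1, Ptges3, Hsf2, Hspd1, Hspe1 and Cct3. Of the 44 genes, 17 had every EPS library above every control library (38.6%, against 9.32% of all genes), and 1 had every EPS library below (2.27%, against 4.83%). The median log2 fold change was 0.26 over the 44 genes and 0.01 over all genes tested.

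**Figure D1:**
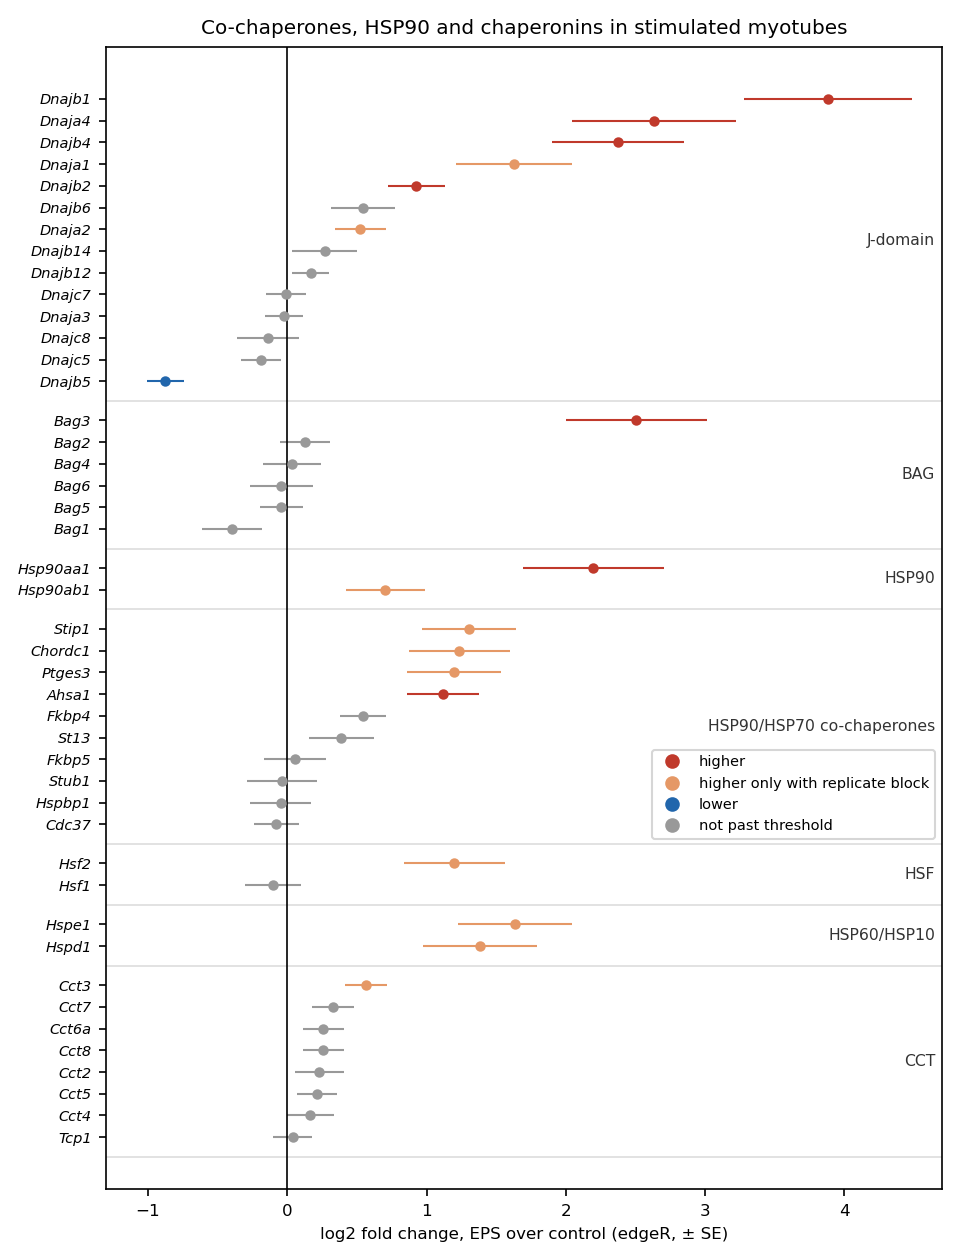
Log2 fold change of EPS over control for each of the 44 genes (edgeR, points; bars are ± 1 SE), by family. The 7 genes called higher lie between 0.93 and 3.88, Dnajb5 lies at −0.87, and the 10 genes called only with the replicate block lie between 0.52 and 1.64.

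The rise was uneven among EPS libraries. EPS replicates 1 and 2 both exceeded EPS replicates 3 and 4 in 26 of the 44 genes (59.1%), in 7 of the 7 called higher and in 17 of the 17 called higher with the block, against 34.2% of all genes tested and 72.7% of all genes called higher. EPS replicate 2 was the highest EPS library for 6 of the 7. With EPS replicates 1 and 2 both left out, 5 genes were called higher, namely Dnajb1, Dnaja4, Dnajb4, Bag3 and Dnaja1, against 239 of 14367 genes tested (1.66%), and Dnajb5 was lower, against 101 genes (0.703%). The count without a single library was 1 without EPS replicate 1, 5 without EPS replicate 2, 11 without EPS replicate 3, 12 without EPS replicate 4, 2 without control replicate 2, and 1 each without control replicate 1, 3 or 4. Calls of higher among all genes numbered 92 to 427 under these 8 omissions. Dnajb1 and Dnajb5 were called in all 19 alternative analyses. With offsets for transcript length and GC content, 10 of the 44 were higher and 1 was lower, while calls among all genes were 409 higher and 279 lower, against 322 higher and 106 lower without offsets.

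**Figure D2:**
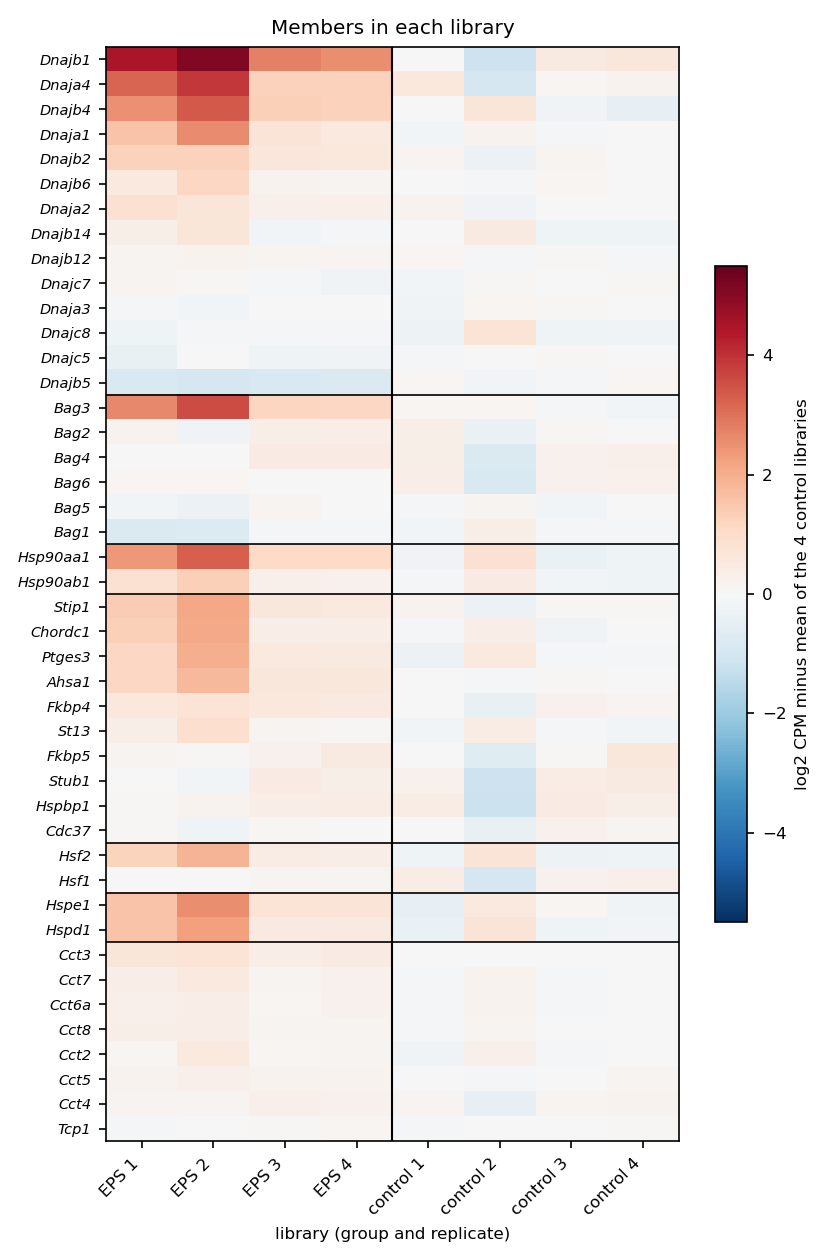
Log2 CPM of each gene in each library minus the mean of the 4 control libraries, with EPS libraries left of the line. Dnajb1, Dnaja4, Dnajb4, Bag3 and Hsp90aa1 are darkest in EPS replicates 1 and 2 and paler in EPS replicates 3 and 4, while the CCT rows are pale throughout.

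Promoter sequences were searched for exact inverted repeats of GAA, a short form of the letters that heat shock factors bind. RefSeq promoter windows on GRCm38.p6 (250 bases before to 50 after a transcription start) were found for 37 of the 44 genes; Bag4, Hsf1, Hsp90ab1, Cct4, St13, Dnajc5 and Hsp90aa1 had none. The motifs searched were GAANNTTC and TTCNNGAA, each of which reads the same on both strands, with overlapping matches counted. One or more was found in 14 of the 37 genes (37.8%), against 17.0% of all 27025 genes in the table, and 3 alternating repeats in a row in 4 of the 37 (10.8%), against 0.662% of all genes. Of the 6 genes called higher that had a window, 3 held a match, and of the 15 called higher with the block, 7 did, as did 7 of the 22 others. For a gene with several windows, the highest count among them entered these shares, in all genes alike. Hspd1 and Hspe1 are counted as separate genes here although their matches are the same bases. Hspd1 enters only through a start inside its annotated gene. Windows from 100 bases before to 50 after the start are given for 6 genes picked with the matches known. Of these, 5 have matches and the gene of largest fold change has none. The window with the most matches was picked for each gene, and capitals mark the bases GAA or TTC of each match. Chordc1 was added after its values were seen. Ahsa1, Dnajb2 and Tcp1, windowed by the rule given below, had no match and are not printed. The share with matches among the printed genes is therefore no estimate for the rest.
Hspe1: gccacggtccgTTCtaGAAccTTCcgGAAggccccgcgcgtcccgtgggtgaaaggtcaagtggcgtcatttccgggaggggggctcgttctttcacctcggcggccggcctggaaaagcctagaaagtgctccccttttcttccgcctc
Chordc1: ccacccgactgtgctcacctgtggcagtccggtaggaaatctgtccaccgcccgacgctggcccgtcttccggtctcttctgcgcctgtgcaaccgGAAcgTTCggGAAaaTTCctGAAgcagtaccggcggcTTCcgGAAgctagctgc
Dnaja4: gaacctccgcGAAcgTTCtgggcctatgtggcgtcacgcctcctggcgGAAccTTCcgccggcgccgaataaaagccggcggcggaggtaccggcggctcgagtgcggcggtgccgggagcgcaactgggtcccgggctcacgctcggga
Dnajb4: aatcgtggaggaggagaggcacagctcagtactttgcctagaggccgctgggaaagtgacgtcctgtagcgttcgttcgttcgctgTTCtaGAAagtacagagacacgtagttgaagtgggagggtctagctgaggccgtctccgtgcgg
Bag3: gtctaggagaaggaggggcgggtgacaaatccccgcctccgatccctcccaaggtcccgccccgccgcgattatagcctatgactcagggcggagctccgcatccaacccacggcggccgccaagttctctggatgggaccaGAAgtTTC
Dnajb1: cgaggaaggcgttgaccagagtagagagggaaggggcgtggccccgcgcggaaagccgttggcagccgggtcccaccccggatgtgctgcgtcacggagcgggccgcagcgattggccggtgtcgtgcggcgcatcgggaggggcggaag

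The Hspe1 window is chr1:55088048-55088197 on the plus strand, and its 3 overlapping matches begin 89, 84 and 79 bases before the start. Hspd1 is transcribed the other way from the same stretch. The same bases lie 144, 139 and 134 bases before a RefSeq start of Hspd1 at 55087932. That start lies inside the annotated gene, which begins at 55088243 on the minus strand. The Hspd1 window around the annotated start (55088194-55088493) held no match. Chordc1 (chr9:18292167-18292316, plus strand) held 5 matches, 4 of them overlapping around the start itself. Dnaja4 (chr9:54699459-54699608, plus strand) held matches 90 and 52 bases before its start. Dnajb4 (chr3:152193796-152193945, minus strand) held 1 match 14 bases before a RefSeq start that lies 16457 bases from the start of the annotated gene. The other RefSeq windows of Dnaja4 and Dnajb4 held no match. In Bag3 (chr7:128523483-128523632, plus strand) the match lies 43 bases after the start. No match was found in the Dnajb1 window (chr8:83608075-83608224, plus strand), nor in those of Ahsa1, Dnajb2 and Tcp1. Dnajb6, which was not called, also held overlapping matches, the first 46 bases before one of its starts. A match is a description of letters and says nothing of binding in these cells. Imperfect repeats and bases outside the windows were not searched, so a gene without a match is not shown to lack a site.

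J-domain proteins are the partners that load clients onto HSP70, and 4 of the 14 rose and 1 fell, with a median log2 fold change of 0.40. Dnajb1, the HSP40 most often paired with inducible HSP70, lies at chr8:83608193-83612653 (mm10). Its level was 995, 1508, 295 and 254 CPM in EPS replicates 1 to 4, against 44.7, 19.9, 60.8 and 67.0 CPM in control replicates 1 to 4. The groups were far apart, and EPS replicates 1 and 2 stood well above the other EPS libraries. The log2 fold change was 3.88 (SE 0.60, edgeR adjusted p = 0.0078), the largest of the 44. It was 2.34 with EPS replicates 1 and 2 left out (adjusted p = 0.0016).

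Dnaja4, a cytosolic class A J-domain protein (chr9:54698873-54716315), had 247, 402, 63.9 and 64.4 CPM in EPS libraries, against 40.6, 14.2, 28.8 and 31.0 CPM in control libraries. No EPS library overlapped a control library, though EPS replicates 3 and 4 were much nearer to them. Its log2 fold change was 2.63 (SE 0.59, edgeR adjusted p = 0.0411), or 0.97 without EPS replicates 1 and 2 (adjusted p = 0.0375). Exons of Wdr61 on the opposite strand share 44.1% of the Dnaja4 exon bases, and the fold change of Wdr61 itself was −0.04 on the log2 scale (adjusted p = 0.927). The library kit marks strand, but the sources used here do not give the strand setting of the counting.

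Dnajb4, a class B relative of Dnajb1 (chr3:152178511-152210302), had 709, 1278, 311 and 297 CPM in EPS libraries, against 121, 196, 109 and 91.9 CPM in control libraries. All EPS values lay above all control values (log2 fold change 2.38, SE 0.47, edgeR adjusted p = 0.0275). Dnajb2, a J-domain protein with ubiquitin-binding motifs (chr1:75236406-75245692), had 161, 159, 103 and 99.5 CPM in EPS libraries, against 74.4, 54.0, 73.4 and 67.0 CPM in control libraries. Its EPS libraries fell into the same 2 pairs with a smaller gap (log2 fold change 0.93, SE 0.21, edgeR adjusted p = 0.0403). Without EPS replicates 1 and 2 the value for Dnajb2 was 0.53 (adjusted p = 0.0934).

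Dnajb5, a class B J-domain gene at chr4:42949814-42959425, moved the other way. It had 41.6, 39.2, 40.6 and 41.8 CPM in EPS libraries, against 80.2, 65.3, 70.6 and 79.1 CPM in control libraries. Here the 4 EPS libraries were close together, replicates 1 and 2 included, and all lay below every control library. Its log2 fold change was −0.87 (SE 0.13, edgeR adjusted p = 0.0074), and −0.88 without EPS replicates 1 and 2 (adjusted p = 0.0105).

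**Figure D3:**
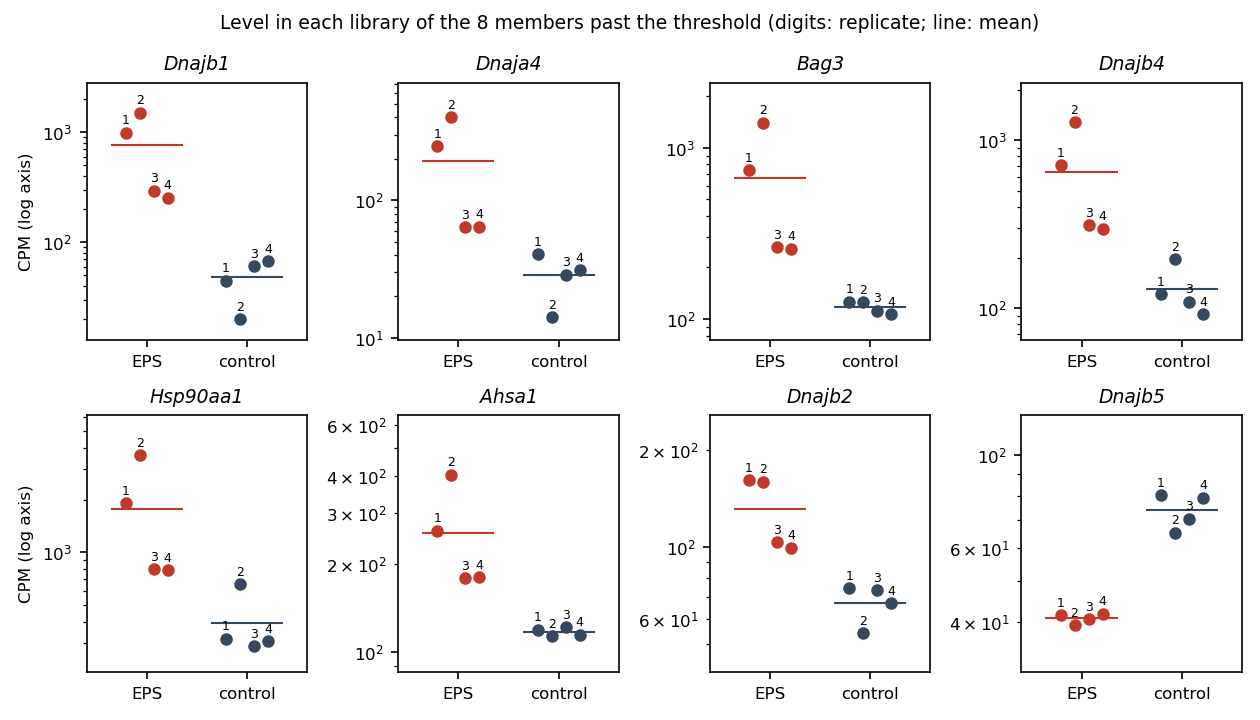
CPM on a log axis in each library for the 8 genes past the threshold, EPS left of control, with digits for replicates and lines for group means. In the 7 genes called higher EPS replicates 1 and 2 lie above EPS replicates 3 and 4, which lie above every control library, and in Dnajb5 the 4 EPS libraries lie together near 41 CPM.

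Class A genes Dnaja1 and Dnaja2, general partners of cytosolic HSP70, passed only with the block. Dnaja1 had 206, 426, 115 and 99.8 CPM in EPS libraries, against 62.4, 79.5, 66.9 and 69.5 CPM in control libraries. Its groups did not overlap, yet the log2 fold change of 1.63 missed the threshold (edgeR adjusted p = 0.0662; 1.25 and 0.0113 with the block). Dnaja2 had 696, 609.8, 473 and 474 CPM in EPS libraries, against 442, 344, 398 and 379 CPM in control libraries, and also did not overlap (log2 fold change 0.52, adjusted p = 0.156; 0.0459 with the block). The remaining 7 J-domain genes were not called by either fit, with log2 fold changes of −0.19 to 0.54. Dnajb6, a Z-disc protein in muscle, had the highest of these, 49.2, 75.5, 39.4 and 37.2 CPM in EPS libraries against 33.4, 31.2, 36.8 and 34.7 CPM in control libraries (adjusted p = 0.238). Values for the endoplasmic reticulum proteins Dnajb12 and Dnajb14 were 0.17 and 0.27. Mitochondrial Dnaja3 was at −0.02, the synaptic vesicle protein Dnajc5 at −0.19, the TPR protein Dnajc7 at −0.01 and the splicing-associated Dnajc8 at −0.14.

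BAG proteins release nucleotide from HSP70, and 1 of the 6 rose. Bag3 (chr7:128523616-128546981), which targets damaged muscle filament proteins for autophagy, had 740.3, 1398, 264 and 258 CPM in EPS libraries, against 127, 125, 112 and 107 CPM in control libraries. Each EPS library was above each control library, with EPS replicates 1 and 2 highest (log2 fold change 2.50, SE 0.51, edgeR adjusted p = 0.0285). Without EPS replicates 1 and 2 the log2 fold change of Bag3 was 1.15 (adjusted p = 0.0033). The other 5 were not called and had log2 fold changes of −0.40 to 0.13. Among them Bag1, the founding member, was the most abundant per length in control cells, with 134 ± 30.6 FPKM in EPS and 183 ± 40.2 FPKM in control libraries (SD, n = 4 each), FPKM being the deposited level per transcript length and depth. In CPM, Bag1 had 191, 199.8, 318 and 312 in EPS libraries, against 303, 418, 316 and 317 in control libraries (log2 fold change −0.40, adjusted p = 0.363). Values were 0.13 for Bag2, 0.03 for Bag4, −0.04 for Bag5 and −0.04 for Bag6, which handles mislocalised membrane proteins.

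HSP90 has an inducible and a constitutive cytosolic gene. Inducible Hsp90aa1 (chr12:110690605-110702728) had 1911, 3604, 798 and 789.8 CPM in EPS libraries, against 319, 656, 289.6 and 309.7 CPM in control libraries. EPS replicates 3 and 4 lay nearer to the shallow control replicate 2 than to the other control libraries, but no libraries overlapped (log2 fold change 2.20, SE 0.51, edgeR adjusted p = 0.0454). The value was 2.53 without control replicate 2 (adjusted p = 0.0504) and 1.05 without EPS replicates 1 and 2 (adjusted p = 0.122). Constitutive Hsp90ab1 (chr17:45567775-45573271) had 6836, 9504, 4661 and 4539 CPM in EPS libraries, against 3656, 5284, 3445 and 3296 CPM in control libraries. Control replicate 2 lay above EPS replicates 3 and 4, so the groups overlapped, and the log2 fold change of 0.71 passed only with the block (edgeR adjusted p = 0.218; 0.0164 with the block).

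Of the 10 partners of HSP90 and HSP70, Ahsa1 was called higher and 3 more passed with the block. Ahsa1 (chr12:87266479-87273998), which speeds up the ATPase of HSP90, had 260.2, 404, 179 and 181 CPM in EPS libraries, against 119.5, 114, 122 and 115 CPM in control libraries. The control libraries were within a narrow range, below every EPS library (log2 fold change 1.12, SE 0.26, edgeR adjusted p = 0.0453; 0.60 and 0.0525 without EPS replicates 1 and 2). Stip1, which bridges HSP70 and HSP90, had 639, 1063, 368 and 354 CPM in EPS libraries, against 276, 193, 254 and 249 CPM in control libraries. Its groups did not overlap (log2 fold change 1.30, edgeR adjusted p = 0.0675; 0.0253 with the block). Chordc1, an HSP90-binding zinc protein, had 237, 402, 124 and 124 CPM in EPS libraries, against 88.5, 122, 82.7 and 93.2 CPM in control libraries. It too did not overlap, by a small margin over control replicate 2 (log2 fold change 1.23, edgeR adjusted p = 0.1; 0.0135 with the block).

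Ptges3, the p23 protein that holds HSP90 in its closed state, had 175, 318, 117 and 114 CPM in EPS libraries, against 63.7, 116, 74.6 and 74.3 CPM in control libraries. EPS replicate 4 lay below control replicate 2 (log2 fold change 1.20, edgeR adjusted p = 0.0881; 0.0057 with the block). A processed copy, Ptges3-ps, held 41.2% of the fragments assigned to Ptges3 and its copy, so the division between them is uncertain. Together they averaged 308 CPM in EPS and 137 CPM in control libraries. Fkbp4, an immunophilin of steroid receptor complexes, had 140.2, 161, 140.3 and 132 CPM in EPS libraries against 95.6, 71.0, 113 and 104 CPM in control libraries (log2 fold change 0.55, edgeR adjusted p = 0.105; 0.0506 with the block). These libraries did not overlap either. For St13, the HSP70-interacting protein Hip, the log2 value was 0.39 (adjusted p = 0.409). Values were 0.06 for Fkbp5, −0.08 for the kinase-specific Cdc37, −0.05 for Hspbp1 and −0.04 for the ubiquitin ligase Stub1, of whose exon bases 42.3% are shared with Jmjd8 on the opposite strand.

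The 2 heat shock factors differed in their values. Hsf1 had 48.8, 47.6, 53.4 and 54.1 CPM in EPS libraries, against 63.5, 25.6, 56.4 and 59.3 CPM in control libraries (log2 fold change −0.10, edgeR adjusted p = 0.831). Hsf2 had 89.7, 141, 50.8 and 49.2 CPM in EPS libraries, against 32.8, 62.5, 31.5 and 32.7 CPM in control libraries. Control replicate 2 overlapped the EPS range, and Hsf2 passed only with the block (log2 fold change 1.20, edgeR adjusted p = 0.105; 0.0053 with the block).

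Mitochondrial HSP60 and HSP10 both passed only with the block. Hspe1, the HSP10 lid (chr1:55088132-55091307), had 169.7, 338, 97.6 and 94.4 CPM in EPS libraries, against 42.2, 82.4, 62.3 and 50.2 CPM in control libraries. Its groups did not overlap (log2 fold change 1.64, edgeR adjusted p = 0.0612; 0.0054 with the block). Hspd1, the HSP60 chamber (chr1:55077835-55088243), had 390.2, 633, 188 and 187 CPM in EPS libraries, against 103, 219, 114 and 122 CPM in control libraries. Control replicate 2 lay above EPS replicates 3 and 4 (log2 fold change 1.38, edgeR adjusted p = 0.102; 0.0067 with the block). Named pseudogene copies, chiefly Hspd1-ps3, held 27.6% of the fragments assigned to Hspd1 and its copies. With these copies the Hspd1 level averaged 483 CPM in EPS and 182 CPM in control libraries. Counted by itself, the copy Hspd1-ps3 was called higher without the block (log2 fold change 1.655, edgeR adjusted p = 0.0422). Annotated starts of the 2 genes are 111 bases apart on opposite strands, and their exons share 112 bases.

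CCT folds actin and tubulin, and none of its 8 subunits was called. All 8 log2 fold changes were above 0, from 0.04 for Tcp1 to 0.56 for Cct3, with a median of 0.24. Cct3 had 376, 409.7, 309.5 and 326 CPM in EPS libraries, against 245, 242, 235 and 239.5 CPM in control libraries. Its groups did not overlap, and it passed with the block (edgeR adjusted p = 0.076; 0.0222 with the block). Tcp1, the first subunit, had 407, 428, 442 and 450.2 CPM in EPS libraries, against 399.8, 420.5, 417 and 444 CPM in control libraries, with the ranges overlapping. Values for the other 6 were 0.33 for Cct7, 0.26 for Cct6a, 0.26 for Cct8, 0.23 for Cct2, 0.22 for Cct5 and 0.17 for Cct4. Exons of Psph on the opposite strand share 12.5% of the Cct6a exon bases. Psph averaged 37.0 CPM in EPS and 11.0 CPM in control libraries (log2 fold change 1.43, edgeR adjusted p = 0.0662). The part of this overlap in the Cct6a value was not tested.

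Related genes were compared within each library, where scaling cancels but the counting error of low depth does not. In control replicate 2, for example, Dnajb1 and Dnajb6 had 7 and 11 fragments. The difference between groups in the log2 ratio was tested for 7 pairs with an exact two-sided permutation test. With 4 against 4 libraries the smallest possible p is 0.0286, and none of the 7 passed after Benjamini-Hochberg adjustment over the pairs. After that adjustment a fully separated pair can pass only if several other pairs are fully separated too. The size of its own difference therefore cannot decide this. The ratio of inducible Hsp90aa1 to constitutive Hsp90ab1 was −2.08 ± 0.56 in EPS and −3.38 ± 0.25 in control libraries on the log2 scale (SD, n = 4 each), a difference of 1.30 (SE 0.31, exact p = 0.0286, adjusted 0.0667). All 4 EPS ratios lay above all 4 control ratios. The same held for Dnajb1 over Dnajb6, with a difference of 3.22 (SE 0.56), and for Bag3 over Bag6, with 2.08 (SE 0.65), at the same exact p-values. Dnaja1 over Dnaja2 differed by 0.84 (SE 0.41, exact p = 0.0571, adjusted 0.1). These tests and standard errors were unpaired. Unpaired differences were smaller against their error for Fkbp4 over Fkbp5 (0.36, SE 0.22, exact p = 0.171), for Hsf1 over Hsf2 (−0.90, SE 0.68, exact p = 0.2) and for Hspd1 over Hspe1 (−0.20, SE 0.13, exact p = 0.2). Without control replicate 2 the Hsf1 over Hsf2 difference was −1.44, and each of the 3 remaining control ratios lay above every EPS ratio. Taken between same-numbered libraries, the differences had 1 sign in all 4 pairs for 6 of the 7 ratios, Fkbp4 over Fkbp5 (0.36, paired SE 0.07), Dnaja1 over Dnaja2 (0.84, paired SE 0.31) and Hsf1 over Hsf2 (−0.90, paired SE 0.33) among them. For Hspd1 over Hspe1 3 of the 4 were below 0. An exact two-sided sign-flip test over 4 pairs cannot go below 0.125, the p of each of those 6 ratios (adjusted 0.146), so it cannot reach 0.05.

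**Figure D4:**
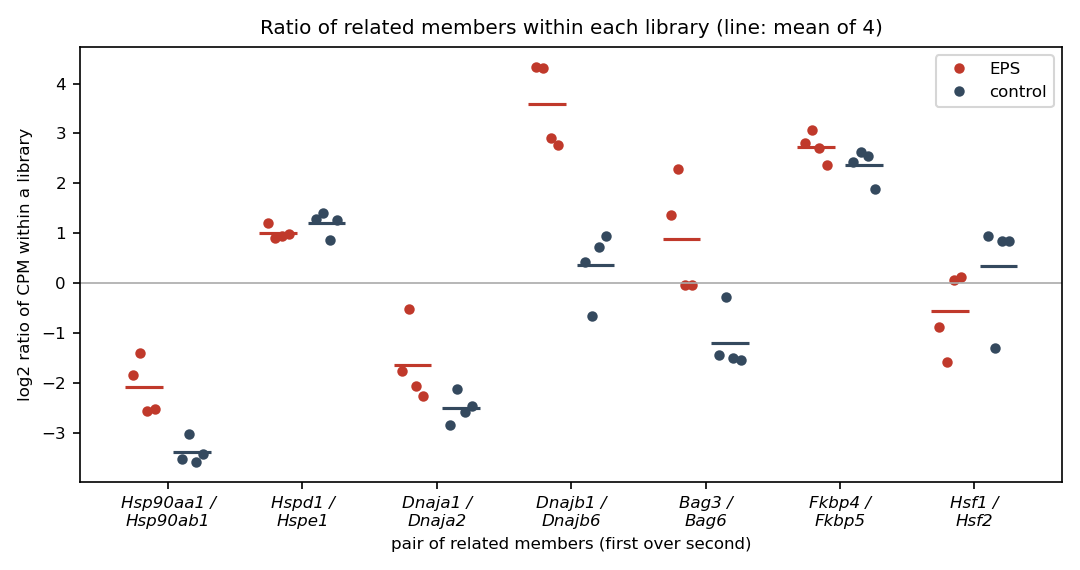
Log2 ratio of 2 related genes within each library, with EPS libraries left of control libraries and lines at the means of 4. For Hsp90aa1 over Hsp90ab1, Dnajb1 over Dnajb6 and Bag3 over Bag6 every EPS point lies above every control point, with mean differences of 1.30, 3.22 and 2.08.

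By level per length, 5 of the 44 genes held the same rank in EPS and control cells, 9 stood 5 or more places nearer the top in EPS cells, and 14 stood 5 or more places further down. Hsp90ab1 ranked highest in both groups, with 1648 ± 738 FPKM in EPS and 1002 ± 289.9 FPKM in control libraries (SD, n = 4 each). In control cells CCT subunits filled 5 of the next 7 ranks, and all 8 had mean levels of 87.7 to 212 FPKM there. Neighbouring CCT subunits in that order overlapped within ± 1 SD except Cct5 with Cct8 and Cct6a with Cct3. Dnajb1 ranked 5 in EPS cells and 35 in control cells (293 ± 242 and 18.2 ± 6.79 FPKM). Hsp90aa1 ranked 2 in EPS and 14 in control cells, Hspe1 ranked 3 and 11, Dnajb4 ranked 4 and 21, and Bag3 ranked 10 and 24. Dnaja4 ranked 25 and 41, and Dnaja1 ranked 24 and 34. Among those further down, Bag1 ranked 19 in EPS and 4 in control cells, and Dnajc8 ranked 27 and 17. Ranks are relative, and a move down need not be a lower level. Tcp1 ranked 7 in EPS and 2 in control cells, at 218 ± 15.8 and 212 ± 18.6 FPKM. Fkbp5 was the lowest in both, with 4.81 ± 0.42 FPKM in EPS and 4.32 ± 1.22 FPKM in control libraries. Summed over the 14 J-domain genes the level was 1223 ± 626 FPKM in EPS and 525 ± 24.7 FPKM in control libraries. The 8 CCT genes summed to 1368 ± 150.4 FPKM in EPS and 1166 ± 52.7 FPKM in control libraries.

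**Figure D5:**
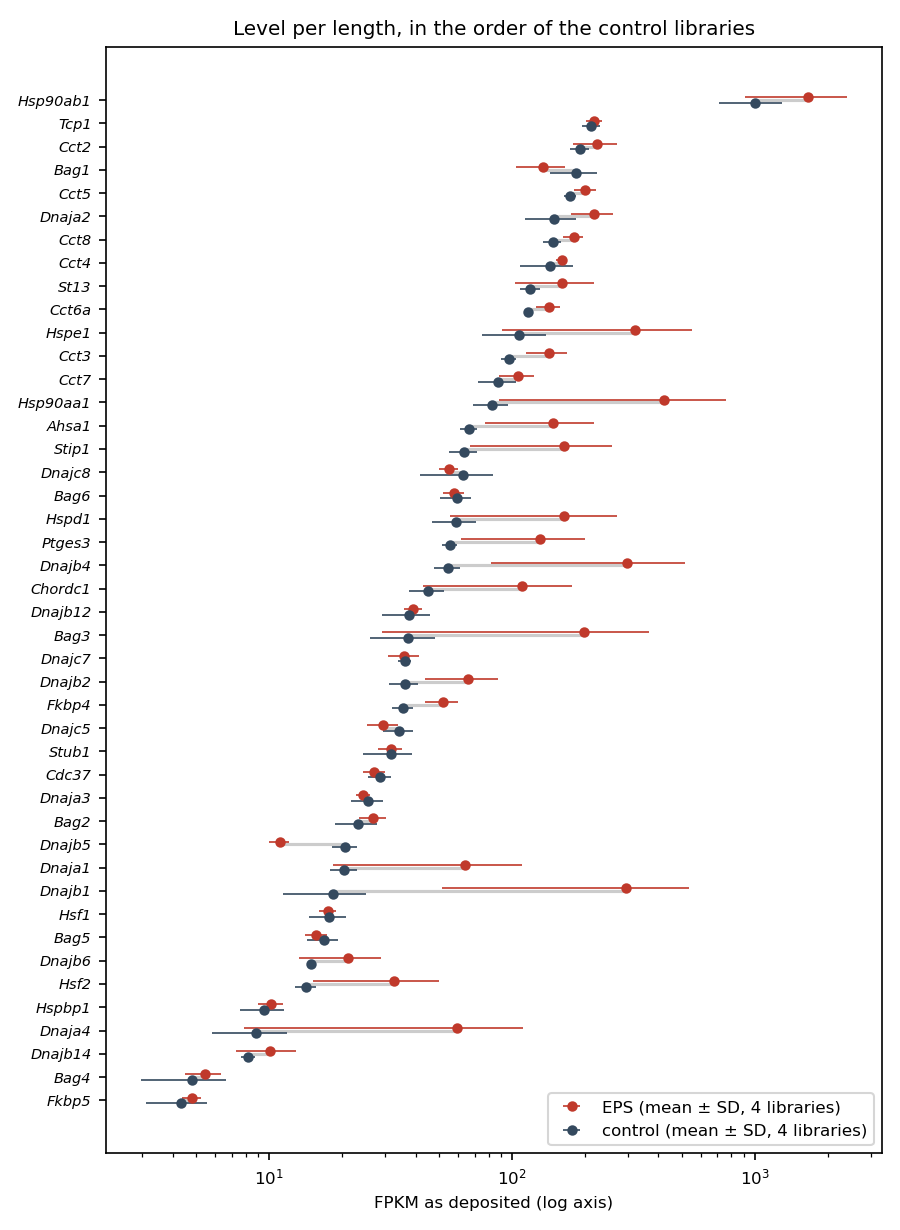
Deposited FPKM on a log axis for each gene, as the mean ± SD of 4 EPS and 4 control libraries, in the order of the control means. Hsp90ab1 stands highest in both groups, and Dnajb1 lies at 293 FPKM in EPS and at 18.2 FPKM in control cells.

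Partners outside the 44 genes were read from lists of the same pathways. Over all genes tested, 2.30% were called higher and 0.758% lower, or 7.31% and 4.78% with the block. Of 15 HSP70 and HSP110 genes tested 3 rose (7 with the block): the inducible HSP70 genes Hspa1b and Hspa1a, and Hsph1, a nucleotide exchange factor. Hspa1b averaged 2844 ± 3001 CPM in EPS and 31.2 ± 15.2 CPM in control libraries (SD, n = 4 each; log2 fold change 6.71, edgeR adjusted p = 0.0036). Hspa1a averaged 997 ± 1126 and 5.8 ± 1.87 CPM (7.63, adjusted p = 0.0048), and its reads can be shared with its near-identical copy Hspa1b. Hsph1 averaged 1241 ± 1344 CPM in EPS and 80.6 ± 14.8 CPM in control libraries (3.97, adjusted p = 0.0254). Of 7 small heat shock protein genes tested, 3 rose: Hspb1 by 2.65, Cryab by 1.30 and Hspb8, which works with BAG3, by 1.34 on the log2 scale (edgeR adjusted p = 0.0036, 0.0218 and 0.0448).

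Other lists held few calls. With 2.30% of all genes called higher and 0.758% lower, lists this short would hold few in any case. Of 28 further J-domain genes tested none was called (1 higher with the block). Their median was −0.14 on the log2 scale, and the most abundant, Dnajb11 of the endoplasmic reticulum, was at −0.09. Of 26 other HSP90 partners and relatives none was called (1 higher and 1 lower with the block), and their most abundant gene Hsp90b1, the HSP90 of the endoplasmic reticulum, was at 0.24 (edgeR adjusted p = 0.622). Among 14 prefoldin and tubulin folding genes Tbce rose, with 43.4 ± 7.16 CPM in EPS and 22.6 ± 5.7 CPM in control libraries (log2 fold change 0.84, adjusted p = 0.0415), and the list median was −0.20. None of 14 mitochondrial folding and protease genes was called (3 higher with the block). Their most abundant, the mitochondrial HSP70 Hspa9, averaged 1146 ± 527 CPM in EPS and 658 ± 134 CPM in control libraries (0.81, adjusted p = 0.177; 0.0154 with the block). Of 3 partners and relatives of the heat shock factors none was called (2 lower with the block), and Hsbp1, which binds the HSF1 trimer, averaged 97.3 ± 28.8 CPM in EPS and 143 ± 13.8 CPM in control libraries (−0.56, adjusted p = 0.196; 0.0422 with the block).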

How the data were processed

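RNA-seq of 8 C2C12 libraries (4 EPS, 4 control; 16 GEO samples, 2 lanes a library) was used; groups and replicate numbers come from the titles. Per the submitters' processing notes the tools were STAR 2.5.1, Cufflinks and Cuffdiff 2.2.1 on mm10; the sources used here do not give the strand setting or the annotation release. Per the file headers, the deposited table holds Cuffdiff's estimated counts (fragments, unscaled) and FPKM for each gene and library. Whole numbers made up 93.3% of the non-zero estimated counts, and the rest were rounded. Symbols came from a reference table, matching 48051 of 48432 identifiers, and 46 genes that Cuffdiff skipped were left out.

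Genes past edgeR's filter (minimum count 10) were scaled by TMM and tested with the quasi-likelihood test without covariate (R 4.3.3, edgeR 4.0.16), with a threshold of 0.05 on adjusted p over 13987 genes; CPM uses the same scaling. limma 3.58.1 on log2(FPKM + 0.1) or (FPKM + 1), with an FPKM minimum of 0.5 or no filter, and DESeq2 1.42.0 were alternatives, besides RLE scaling, no low-count filter, length and GC offsets, left-out libraries and a replicate block. The procedure was tested on simulated counts of independent libraries, which lack the replicate structure seen here and cannot show how it behaves under that structure. The deviations of same-numbered libraries correlated at 0.3, 0.214, 0.286 and 0.297, so the numbers were taken to pair them in the block. Other pairings gave −0.289 to 0.253. EPS replicate 3 with control replicate 4 (0.253) and EPS replicate 4 with control replicate 3 (0.231) exceeded the same-number value of 0.214. The correlations alone thus do not single out the same-number pairs. All 44 genes are named; of each pathway list up to 4 called genes with the smallest adjusted p, or the most abundant gene, are named; promoters were windowed for the 6 called genes with the largest fold change that had an entry and 2 uncalled genes of highest FPKM. The genes and lists were chosen with earlier results of these data known. Gene positions are from GENCODE for the same build. Depth was 12.6 to 20.7 M fragments  in 7 libraries and 0.354 M in control replicate 2; floors of 3 fragments cover counting error only.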

Additional observations from a re-analysis of the deposited data

Results flagged for a closer look

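In each group of 4 libraries the highest and the lowest CPM were compared with the rest, and 14 of 88 groups had a library far from the other 3; chance gives about 1 in 20. In 10 of the 14 that library was control replicate 2, the one with 0.354 M fragments. It lay high for Hsp90aa1 (656 CPM), St13 (559.7 CPM), Bag1 (418 CPM), Hspd1 (219 CPM), Dnajc8 (213 CPM) and Hsf2 (62.5 CPM), and low for Cct4 (168 CPM), Bag6 (150.6 CPM), Bag4 (11.4 CPM) and Hspbp1 (5.68 CPM). EPS replicate 2 lay high for Cct2 (575 CPM), Cct5 (469.5 CPM) and Dnajb12 (173.5 CPM). Control replicate 1 lay low for Dnajc7 (95.9 CPM). The cause was not tested.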

How the results depend on the processing

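The lower call of Dnajb5 and the higher call of Dnajb1 held in all 19 alternatives. The count of the 44 genes called higher, 7 without a block, was 17 with the replicate block, 18 with the block and control replicate 2 left out, 18 with length and GC offsets and the block, 16 with DESeq2, 12 with no low-count filter, 1 with limma on log2(FPKM + 0.1) with or without a filter, and 2 with limma on log2(FPKM + 1). Leaving out 1 library gave 1 to 12. For all genes higher (322) the counts were 1023 with the replicate block, 1362 with the block and without control replicate 2, 1100 with offsets and the block, 659 with DESeq2, 89 with limma on log2(FPKM + 0.1), 79 with no filter on it, 133 with log2(FPKM + 1), and 92 to 427 without 1 library. For all genes lower (106) they were 668, 1101, 1012, 288, 34, 21 and 50 in the same order, 279 with offsets alone, 162 with no low-count filter, and 22 to 167 without 1 library. Of 836 values of single genes under the alternatives, 54 lost a call, 60 gained one and 47, in 12 genes never called there, changed sign at sizes up to 0.114. Beside the 10 genes named in the report, the block changed no other call among the 44. Pair differences kept their sign with FPKM and without EPS replicates 1 and 2. Same-number differences (a replicate block, added after seeing the data) had a sign-flip test that cannot go below 0.125. That test therefore cannot tell whether a pair would pass 0.05. The cause of these shifts was not tested. Low depth in control replicate 2 limits genes under 30 fragments there. Some genes with more fragments in that library also lay far from the other control libraries, such as Hsp90aa1 (231 fragments) and St13 (197 fragments).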
